A study of Mus musculus with 6 samples.

Results

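The MYC and MAX network is a set of transcription factors, most of which share a basic helix-loop-helix leucine zipper. Followed here were 10 of its genes, among them the MYC paralogs Myc, Mycn and Bmyc and the common partner Max. The others were the antagonists Mxd1, Mxd3, Mxd4, Mxi1 and Mnt, and Mga. The members were found by gene symbol, and 10 of 10 were among the 16440 genes of the table and also among the 14595 genes that passed the filter on low values. The libraries were 6, with 3 from normal myeloid progenitors (MPs), which are FVB N/J mouse bone marrow (BM) cells sorted as Lin-Sca-1-c-Kit+, and 3 from GFP-labeled c-Kit+ acute promyelocytic leukemia (APL) cells of the same strain. APL is a leukemia of promyelocytes that the PML/RARα fusion protein initiates. The APL cells came from mice transgenic for hMRP8-PML/RARα, in which the human MRP8 promoter drives the fusion gene in myeloid cells. They were marked with a GFP-expressing MigR1 retroviral vector and were expanded by transplantation into syngeneic mice. The MPs were normal cells. No drug is named for these samples. The labels give no ages, and the study's methods give an age range of some weeks for the recipients of transplanted APL cells but none for the MP donors. The APL cells were sorted on GFP and c-Kit and the MPs on the absence of lineage antigens and Sca-1 and the presence of c-Kit, so that the gates differed as well as the genotype. The labels call the 3 libraries of a group biological replicates, and how many primary leukemias the APL libraries trace to is not given in the sources used here. Total fragments per library ranged from 22976881 to 26932357 in MPs and from 20608715 to 28382785 in APL progenitors.

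MYC proteins bind DNA only as dimers with MAX, mostly at the E-box CACGTG, and recruit acetyltransferase and chromatin remodeling complexes that raise transcription of genes for ribosome production, nucleotide synthesis and growth. MXD proteins, MXI1 and MNT also dimerize with MAX and recruit SIN3 and histone deacetylases to the same motif, and MGA joins MAX in a Polycomb-like repressor complex. In blood cells MYC is high in dividing progenitors, whereas several MXD genes are known to rise as granulocytic cells mature.

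In c-Kit+ APL progenitors, Mycn and Bmyc were nearly silent, Myc remained at a high level 0.764-fold that of MPs, and Mxi1 and Mxd4 were upregulated 2.50-fold and 1.83-fold. A gene was called when its adjusted p was under 0.05 (limma, Benjamini-Hochberg over all genes tested) and its fold change was over 1.5. By that rule 2 of the 10 members were downregulated (Mycn and Bmyc), 2 were upregulated (Mxd4 and Mxi1) and 6 were not called. Of all genes tested, 24.4% were called lower and 21.7% higher in APL, so that the members were called about as often as any gene. At an adjusted p under 0.05 and any fold, 3 members were lower and 5 were higher, against 37.3% and 29.7% of all genes. For 8 members the range of the MP libraries lay wholly apart from that of the APL libraries, against 70.9% of all genes tested. The median log2 fold change was 0.09 over the members, which lies between Max and Mnt whatever size is given to Mycn and Bmyc, and -0.10 over all genes tested. For a single gene, the exact permutation test of 3 libraries against 3 cannot give a two-sided p under 0.1. Since RNA was taken from sorted populations, fewer cells of a type and less RNA per cell cannot be told apart.

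**Figure D1:**
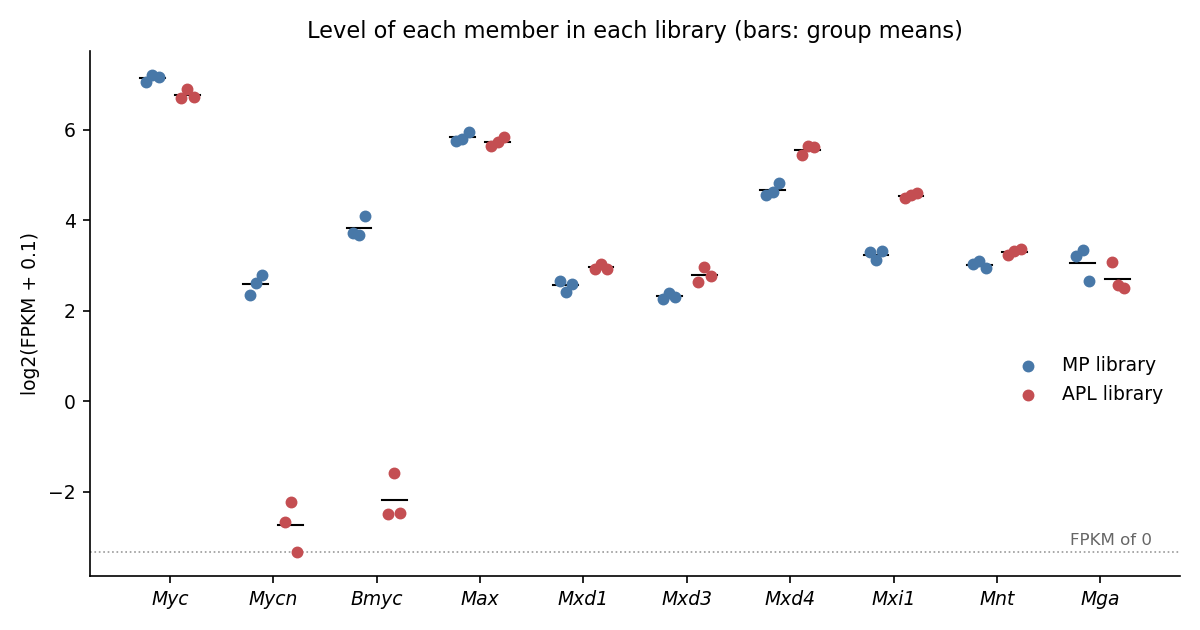
Level of each of the 10 members on the y axis as log2(FPKM + 0.1), with 1 point per library (blue, 3 MP libraries; red, 3 APL libraries) and a bar at the group mean; the dotted line is an FPKM of 0. The Mycn and Bmyc points of APL lie near that line, at 0.234 FPKM or less, and the Mxi1 and Mxd4 points of APL lie above those of MPs.

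Levels were compared between genes in FPKM, which is per transcript length. In MPs the order of mean levels was Myc (141 ± 8.41 FPKM, SD, n = 3), Max (57.0 ± 4.31), Mxd4 (25.3 ± 2.57), Bmyc (14.2 ± 2.31), Mxi1 (9.37 ± 0.697), Mga (8.42 ± 2.00), Mnt (8.003 ± 0.434), Mycn (5.93 ± 0.949), Mxd1 (5.80 ± 0.498) and Mxd3 (4.91 ± 0.233). The libraries of Mxi1 and Mga, of Mga and Mnt, and of Mycn and Mxd1 overlapped, so that these neighbours were not separated by more than their spread. In APL the order was Myc (109 ± 8.33), Max (53.2 ± 3.74), Mxd4 (47.1 ± 3.63), Mxi1 (23.2 ± 0.818), Mnt (9.78 ± 0.455), Mxd1 (7.70 ± 0.300), Mxd3 (6.82 ± 0.802), Mga (6.55 ± 1.52), Bmyc (0.131 ± 0.0889) and Mycn (0.0570 ± 0.0567). Max and Mxd4, Mxd1 and Mxd3, Mxd3 and Mga, and Bmyc and Mycn overlapped there. Bmyc thus moved from the fourth place to the ninth, and Mxd4 reached the range of Max.

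Myc, the paralog active in most dividing cells, lies at chr15:61985341-61990361 on GRCm38. Its scaled fragments were 8066, 8889 and 8916 in the MPs, in the order of the library numbers, and 6216, 7161 and 6399 in the APL progenitors. Every APL library lay below every MP library, and the log2 fold change was -0.39 (SE 0.083, adjusted p = 0.00282), with a 95% interval from -0.58 to -0.20. That interval stays inside a 1.5-fold decrease, and Myc was not called. Its adjusted p was between 0.000503 and 0.0153 under the 16 alternatives fitted for single genes, and its log2 fold change between -0.52 and -0.33.

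Mycn, the paralog best known from neural and early hematopoietic cells, lies on the minus strand at chr12:12936093-12941836. It had 304, 364 and 438 scaled fragments in MPs and 3.53, 6.94 and 0 in APL. Before scaling, the APL libraries held 3, 8 and 0 fragments, so that 1 library had none and another had no more than the 3 fragments taken here as the limit of detection. The fitted log2 fold change was -6.79 (SE 0.65, adjusted p = 1.91e-05) and ran from -7.42 (without APL library 2) to -5.32 (with FPKM) under the alternatives. It was -7.21 and -5.53 with a smaller and a larger pseudocount. The ratio of the summed fragments, corrected for library scale, was 94.5 in favour of MPs, with an exact 95% interval from 52.6 to 190 that covers counting error only.

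Bmyc encodes a short MYC relative that lacks the DNA-binding domain, and lies at chr2:25706879-25707719 on the plus strand. It had 195, 188 and 272 scaled fragments in MPs and 1.18, 3.47 and 1.23 in APL, or 1, 4 and 1 fragments before scaling. MP library 3 was the highest, and all 3 APL libraries were near the limit of detection. The fitted log2 fold change was -6.27 (SE 0.34, adjusted p = 5.23e-07), and the ratio of summed fragments was 103 (exact 95% interval 47.0 to 281). Under the alternatives the log2 fold change of Bmyc ran from -6.61 (without APL library 2) to -5.00 (with the larger pseudocount). Of the summed FPKM of the 3 paralogs, Myc held 87.5% ± 1.58 (SD, n = 3) in MPs and 99.8% ± 0.111 in APL.

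Max, at chr12:76937269-76962248 on the minus strand, encodes the dimerization partner that MYC, MXD, MNT and MGA proteins share. It had 2629, 2703 and 3047 scaled fragments in MPs and 2412, 2600 and 2794 in APL. The groups overlapped, with APL library 3 above MP libraries 1 and 2. The fold of APL over MP was 0.932 with a 95% interval from 0.815 to 1.07 (adjusted p = 0.315). When every library was scaled to the same total, Max had a log2 fold change of -0.23 with an adjusted p of 0.0103.

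Mxi1, a MAX partner that recruits SIN3, gave the largest increase among the members. It spans chr19:53310506-53375810 on the plus strand. Its scaled fragments were 1323, 1179 and 1328 in MPs and 3046, 3197 and 3324 in APL. The groups were far apart relative to their spread, with a log2 fold change of 1.32 (SE 0.075, adjusted p = 7.33e-07) and 1.19 to 1.38 under the alternatives.

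Mxd4, another MAX partner of the same family, lies at chr5:34176580-34187710 on the minus strand. Its scaled fragments were 626, 655 and 797 in MPs and 1162, 1341 and 1282 in APL. The lowest APL library was above the highest MP library, and the log2 fold change was 0.87 (SE 0.11, adjusted p = 0.000102). Mxd4 was the most abundant MXD gene in both groups, and Mxi1 and Mxd4 together held 64.9% ± 2.28 of the summed FPKM of the 4 MXD genes and Mnt in MPs and 74.3% ± 0.491 in APL (SD, n = 3).

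Mxd1, the founding MXD gene and known for its rise in maturing granulocytes, lies on the minus strand at chr6:86647045-86669159. It had 777, 660 and 749 scaled fragments in MPs and 950, 1027 and 959 in APL. The groups did not overlap, but the difference was 1.34-fold (log2 fold change 0.43, SE 0.088, adjusted p = 0.00223), under the fold needed for a call.

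Mxd3, which is known for its expression in S phase cells, lies at chr13:55322055-55329730, a span it shares with Prelid1, so that fragments could be divided between these genes. It had 146, 159 and 161 scaled fragments in MPs and 190, 242 and 211 in APL, with APL library 2 the highest. The log2 fold change was 0.46 (SE 0.14, adjusted p = 0.0165). That adjusted p was 0.0718 without APL library 2, 0.0505 without MP library 1 and 0.0554 with every library scaled to the same total. With quantile normalization the log2 fold change was 0.59 and Mxd3 was called.

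Mnt, the most widely expressed MAX-bound repressor, lies at chr11:74830924-74845725 on the plus strand. It had 915, 936 and 881 scaled fragments in MPs and 1052, 1141 and 1122 in APL. Every APL library was above every MP library, and the difference was 1.21-fold (log2 fold change 0.28, SE 0.072, adjusted p = 0.00798). With every library scaled to the same total the log2 fold change was 0.15 and the adjusted p 0.147.

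Mga, a large protein that holds a T-box besides its MAX-binding domain, spans chr2:119897228-119969581 on the plus strand. It had 3984, 4411 and 2635 scaled fragments in MPs and 3586, 2563 and 2472 in APL. MP library 3 lay within the range of APL and APL library 1 above it, so that the groups overlapped (log2 fold change -0.34, SE 0.20, adjusted p = 0.165). Without MP library 3 the log2 fold change was -0.57 and the adjusted p 0.00489. The pattern was not particular to Mga. Huwe1, a regulator of MYC stability chosen after the values were seen, had 13687, 14297 and 9343 scaled fragments in MPs. In APL it had 11345, 8231 and 8069. A difference between libraries that many genes share was not tested.

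**Figure D2:**
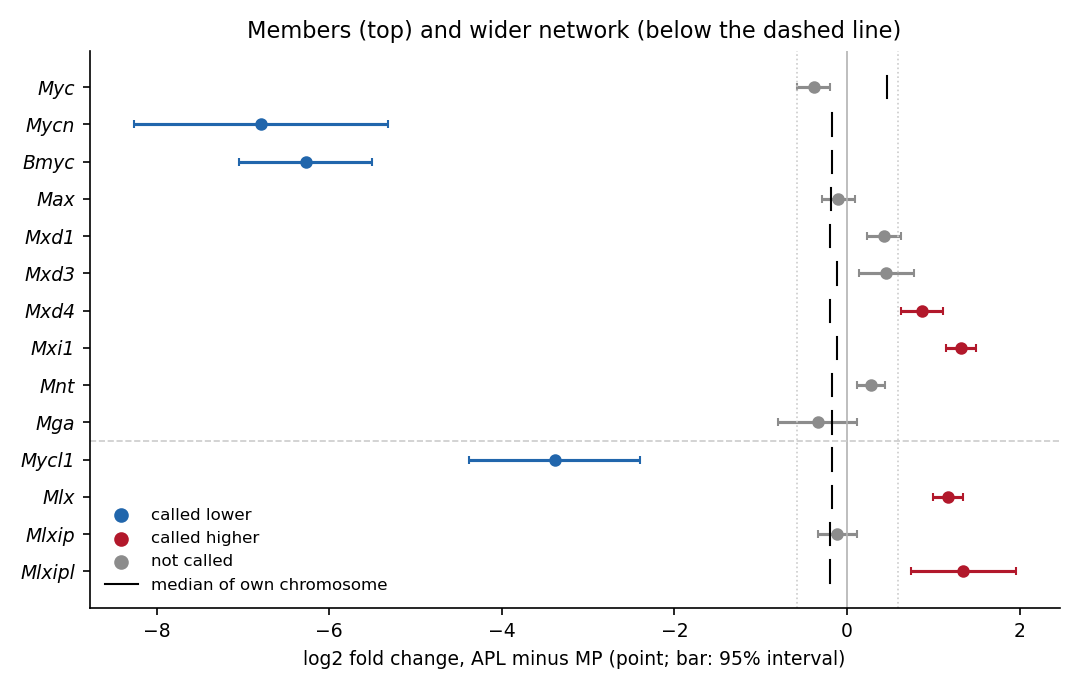
The log2 fold change, APL minus MP, on the x axis for the 10 members and, below the dashed line, 4 related genes; horizontal bars are 95% intervals, colours give the call, black ticks the median of the other genes tested on the same chromosome, and dotted lines a fold of 1.5. Mycn, Bmyc and Mycl1 lie far to the left, and Mxd4, Mxi1, Mlx and Mlxipl to the right of the dotted line.

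Added within a library, the levels of the MYC paralogs were lower in APL and those of the antagonists higher, while Max stayed in the same range. The 3 paralogs summed to 150, 167 and 166 FPKM in the MPs and to 104, 119 and 106 in APL. The 4 MXD genes and Mnt summed to 51.9, 51.8 and 56.3 FPKM in MPs and to 88.2, 98.5 and 97.2 in APL. Neither sum overlapped between the groups. The ratio of antagonist to paralog FPKM was 0.332 ± 0.0189 in MPs and 0.865 ± 0.0469 in APL (SD, n = 3), from 0.311 to 0.347 and from 0.826 to 0.917. Max relative to the paralogs was 0.354 ± 0.0197 in MPs and 0.487 ± 0.0472 in APL. The paralog sum includes Bmyc (14.2 FPKM in MPs and 0.131 in APL), whose product lacks the DNA-binding domain. These are ratios of transcripts, not of proteins, and were not tested.

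**Figure D3:**
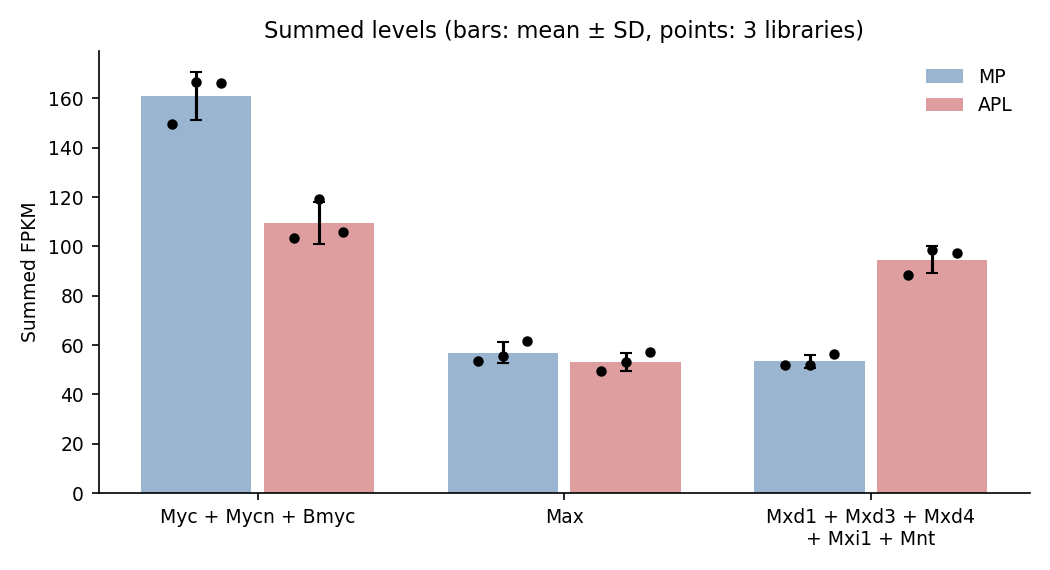
Summed FPKM on the y axis for the 3 MYC paralogs, for Max and for the 4 MXD genes with Mnt; bars are means, error bars the SD, and points the 3 libraries of MPs (blue) and of APL (red). The paralogs sum to 161 FPKM in MPs and 110 in APL, and the antagonists to 53.4 and 94.6.

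The wider network adds the paralog Mycl and the parallel branch of MLX, which pairs with the glucose-sensing factors MondoA (Mlxip) and ChREBP (Mlxipl) and also with some MXD proteins. Of these 4 genes 1 was called lower and 2 higher, against 24.4% and 21.7% of all genes tested. Mlx, at chr11:101087290-101095435, had 1380, 1247 and 1434 scaled fragments in MPs and 2946, 3030 and 3167 in APL, a 2.25-fold increase with no overlap (log2 fold change 1.17, SE 0.075, adjusted p = 1.52e-06). Its span overlaps that of Psmc3ip, and fragments could be divided between them. Mlxip had 2760, 2684 and 2181 scaled fragments in MPs and 2506, 2282 and 2236 in APL, and its 95% interval for the fold of APL over MP ran from 0.790 to 1.08 (adjusted p = 0.346). Without MP library 3 the adjusted p of Mlxip was 0.0171. As with Mga, that library was the lowest of the MPs for Mlxip, and APL library 1 the highest of APL. Mlxipl was low in every library, with 5.62, 6.66 and 7.21 scaled fragments in MPs and 16.5, 19.1 and 18.5 in APL (log2 fold change 1.35, SE 0.27, adjusted p = 0.00181). Mycl, listed under its older symbol Mycl1, had 16.9, 15.2 and 22.5 scaled fragments in MPs and 1.18, 1.73 and 0 in APL. With 59 fragments before scaling in MPs and 3 in APL, the ratio was 17.1 (exact 95% interval 5.59 to 85.5). All paralogs besides Myc were therefore at or near the limit of detection in APL.

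The chromosome on which Myc lies was shifted upwards in APL, whereas Myc was not. The other 562 genes tested on chromosome 15 had a median log2 fold change of 0.46, with 235 (41.8%) called higher and 81 (14.4%) called lower, against a median of -0.12 for genes on the other chromosomes. Myc lay 0.85 below the chromosome 15 median, and 18.5% of the chromosome's genes had a lower fold change than Myc. The 50 genes tested within 10 Mb of Myc had a median of 0.62. Within 1 Mb the table holds only Pvt1, a long noncoding RNA gene that starts 52.6 kb after the start of Myc, and H2afy3, which is listed at the same span as Pvt1. Pvt1 had 234, 270 and 262 scaled fragments in MPs and 232, 232 and 246 in APL, groups that overlapped (log2 fold change -0.11, SE 0.11, adjusted p = 0.422). H2afy3 had at most 3.81 scaled fragments in any library. For the other 9 members the median of their own chromosome lay between -0.20 and -0.11. Relative to that median Max lay at 0.08, Mga at -0.17 and Mnt at 0.45. The sign turned for Max and for no other of these members. No member other than Myc lies on chromosome 15.

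**Figure D4:**
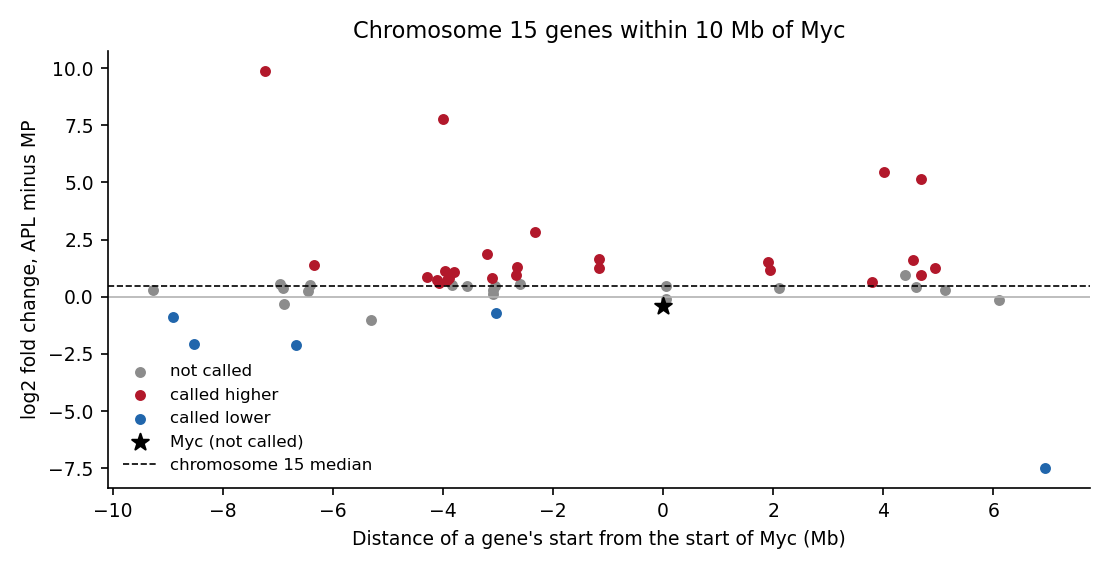
Log2 fold change, APL minus MP, on the y axis for genes tested on chromosome 15 within 10 Mb of Myc, against the distance of each gene's start from the start of Myc in Mb; colours give the call and the dashed line the chromosome median of 0.46. The star marks Myc, which lies below the dashed line at -0.39.

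MXD proteins recruit the SIN3 corepressor, and its scaffold gene Sin3a was strongly upregulated in APL. Of 8 corepressor genes, 3 were called higher and 1 lower, against 21.7% and 24.4% of all genes tested, and their median log2 fold change was 0.18. At any fold, 3 were higher and 3 lower at an adjusted p under 0.05, against 29.7% and 37.3% of all genes. Sin3a, the scaffold of the complex at chr9:57072040-57128368, had 3218, 3527 and 3221 scaled fragments in MPs and 25448, 24423 and 25682 in APL. These groups lay 7.59-fold apart (log2 fold change 2.92, SE 0.074, adjusted p = 1.15e-08), and in FPKM Sin3a rose from 20.7 ± 1.17 to 159 ± 4.34, above the level of Myc in APL. Sap30, a SIN3-associated subunit, rose from 732 ± 91.0 to 1951 ± 191 scaled fragments (log2 fold change 1.41, adjusted p = 5.02e-06). Sin3b, the paralog of Sin3a, rose from 1870 ± 308 to 3041 ± 246 (0.71, adjusted p = 0.000624). Hdac2, a class I deacetylase of the complex, fell from 4640 ± 105 to 2805 ± 67.5 (-0.73, adjusted p = 9.70e-06). The other 4 corepressor genes were not called. With every library scaled to the same total, and also at a fold over 2, the corepressors called higher were 2.

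MGA and MAX form a repressor complex with Polycomb and E2F subunits. Of its 9 further subunits 3 were called lower, 1 higher and 5 not called, with a median log2 fold change of -0.37, and at any fold 5 were lower and 3 higher at an adjusted p under 0.05. Of all genes tested, 24.4% were called lower and 21.7% higher, and at any fold 37.3% were lower and 29.7% higher. The number of subunits called higher was 0 with every library scaled to the same total, 3 with the median ratio, and 2 without APL library 1, APL library 3 or MP library 3. E2f6, the E2F factor of the complex, had 2136, 2165 and 2332 scaled fragments in MPs and 742, 817 and 791 in APL (log2 fold change -1.50, SE 0.074, adjusted p = 3.05e-07). Pcgf6, its Polycomb RING finger subunit, had 854, 874 and 969 in MPs and 381, 418 and 390 in APL (-1.18, SE 0.089, adjusted p = 4.29e-06). Cbx3, a heterochromatin protein, fell from 6915 ± 431 to 4169 ± 324 (-0.73, adjusted p = 5.72e-05). Yaf2, a RING1-binding subunit encoded on chromosome 15, rose from 768 ± 59.3 to 1217 ± 59.9 (0.66, adjusted p = 0.000124). Mga itself was not called.

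Of 14 cofactors of MYC 2 were called lower and 0 higher, against 24.4% and 21.7% of all genes tested, and their median log2 fold change of -0.10 was that of all genes tested. The 2 were Ruvbl1, an ATPase of the TIP60 and INO80 complexes (3865 ± 466 against 2196 ± 149 scaled fragments, log2 fold change -0.81, adjusted p = 9.38e-05), and Actl6a, an actin-related subunit of the same complexes (3501 ± 410 against 2265 ± 62.3, -0.62, adjusted p = 0.000265). At any fold, 6 cofactors were lower and 1 was higher at an adjusted p under 0.05, against 37.3% and 29.7% of all genes. Of 12 regulators of MYC protein stability 2 were called lower and 0 higher, with a median of -0.18, and at any fold 5 were lower and 4 higher. Fbxw7, the ubiquitin ligase subunit that marks MYC for degradation, had 455, 534 and 395 scaled fragments in MPs and 277, 303 and 246 in APL (-0.74, SE 0.14, adjusted p = 0.00132). Usp36, a nucleolar deubiquitinase that stabilizes MYC, fell from 1673 ± 117 to 1069 ± 108 (-0.65, adjusted p = 0.000279). The called genes of this list thus act on MYC in opposite directions. MYC protein was not measured.

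The network's motif was looked for in the RefSeq promoter windows of GRCm38, from 250 bases before to 50 bases after a gene's start. The motif searched was CACGTG, which reads the same on both strands, and overlaps with other motifs were not considered. Of 32851 windows 7.15% held it, as did 8.09% of 27025 genes in at least 1 window and 11.1% of the 11537 genes tested that have a window. Of the 9 members with a window, that is all but Myc, 3 held it (Max, Mxd4 and Mnt), and of the 4 wider network genes 2 (Mlx and Mlxipl). The stretches below show where the network's motif sits at its own genes, each written from 5′ to 3′ on the strand of the gene with CACGTG in capitals. In Max the motif spans the start itself, from base -3 to base 3. In Mlx it begins 40 bases before the start, in Mnt 123 and in Mxd4 219.
Max, minus strand, chr12:76962234-76962263: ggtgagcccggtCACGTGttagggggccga
Mlx, plus strand, chr11:101087238-101087267: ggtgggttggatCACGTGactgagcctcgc
Mnt, plus strand, chr11:74830789-74830818: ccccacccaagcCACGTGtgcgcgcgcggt
Mxd4, minus strand, chr5:34187912-34187941: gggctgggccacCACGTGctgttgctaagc
Mlxipl, plus strand, chr5:135089780-135089809: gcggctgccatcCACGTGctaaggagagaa

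Of these 5 genes Mxd4, Mlx and Mlxipl were called higher and Max and Mnt were not called. Mxi1, the member that rose most, and Mycn and Bmyc, the members called lower, held no CACGTG in their windows, which says only that these letters are not there. Over all genes tested with a window, 23.2% of those with the motif were called lower and 19.5% higher, against 24.9% and 21.0% of those without it. The median log2 fold change was -0.11 in either set.

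Among 40 genes listed as induced by MYC, 20 were called lower and 1 higher, against 24.4% and 21.7% of all genes tested. At any fold 29 were lower and 4 higher at an adjusted p under 0.05, against 37.3% and 29.7% of all genes. Their median log2 fold change was -0.59, against -0.10 for all genes tested. The list was drawn up with earlier results of these data known, so that its count describes these genes and is no test of the list. Most of the called decreases were between 1.5-fold and 2-fold, and at a fold over 2 the list had 3 genes called lower. The genes called lower were 17 with the median ratio, and 26 with quantile normalization or with every library scaled to the same total.

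The largest decrease was that of Ccnd2, which encodes the G1 cyclin D2. It had 2412, 2728 and 2266 scaled fragments in MPs and 12.96, 13.003 and 17.3 in APL (log2 fold change -7.33, SE 0.15, adjusted p = 5.63e-09). Tfrc, the transferrin receptor and also a gene of erythroid cells, had 10997, 11360 and 9649 in MPs and 4497, 4155 and 4151 in APL (-1.32, SE 0.084, adjusted p = 1.42e-06). Hspe1, a mitochondrial chaperonin subunit, had 4571, 4817 and 5995 in MPs and 2047, 1885 and 2345 in APL (-1.29, SE 0.12, adjusted p = 1.52e-05). In all of these genes the groups were apart. The smallest called decreases were those of Ddx21, a nucleolar RNA helicase (-0.61, adjusted p = 0.000106), and Paics, an enzyme of purine synthesis (-0.60, adjusted p = 0.000934). Hk2, a hexokinase that commits glucose to glycolysis, was the only gene of the list called higher, with 1254, 1023 and 908 scaled fragments in MPs and 2459, 2696 and 2604 in APL (1.30, SE 0.11, adjusted p = 1.13e-05).

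Of the 33 induced genes with a promoter window 10 held CACGTG, against 11.1% of the genes tested that have a window. Cdk4, the G1 kinase that pairs with D cyclins, held 4 copies, and is shown as the densest case, chosen after the values were seen. The copies begin 172, 118, 98 and 11 bases before the start on chromosome 10.
Cdk4 copy 1, plus strand, chr10:127063351-127063380: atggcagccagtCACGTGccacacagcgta
Cdk4 copy 2, plus strand, chr10:127063405-127063434: aagtcaaggggtCACGTGggatagcaacag
Cdk4 copy 3, plus strand, chr10:127063425-127063454: atagcaacaggtCACGTGgccgtcagggcc
Cdk4 copy 4, plus strand, chr10:127063512-127063541: aagggtgaagatCACGTGtccagaacgtcc

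Cdk4 had 309 ± 33.5 FPKM in MPs and 227 ± 14.2 in APL (SD, n = 3), with a log2 fold change of -0.43 in scaled fragments (SE 0.11, adjusted p = 0.00663), and was not called.

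Among genes listed as repressed by MYC, 7 of 8 passed the filter, and 4 were called higher and 0 lower, against 21.7% and 24.4% of all genes tested. Their median log2 fold change was 1.28, against -0.10 for all genes, and this list too was drawn up with earlier results known. Ndrg2, a differentiation-associated gene, had 193, 189 and 223 scaled fragments in MPs and 1020, 1078 and 1075 in APL (log2 fold change 2.39, SE 0.099, adjusted p = 1.17e-07). Cdkn1a, which encodes the cell cycle inhibitor p21, had 208, 194 and 231 in MPs and 834, 1000.4 and 963 in APL (2.14, SE 0.11, adjusted p = 4.25e-07). Both genes were several-fold higher in every APL library. Clu, a secreted chaperone, rose from 39.9 ± 8.50 to 134 ± 3.23 (1.74, adjusted p = 6.66e-05). Ndrg1, on chromosome 15, rose from 918 ± 161 to 2218 ± 245 (1.28, adjusted p = 3.02e-05). The other 3 that passed were not called, and Cdkn2b, named outside the rule for named genes, did not pass the filter.

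**Figure D5:**
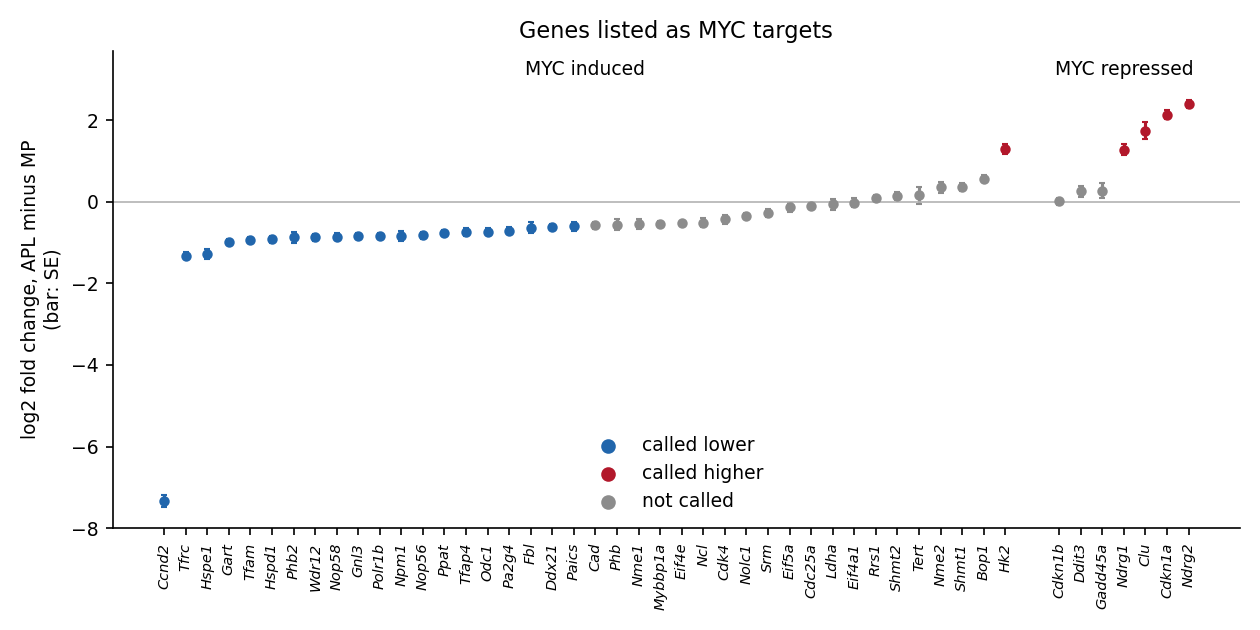
Log2 fold change, APL minus MP, with its SE for each gene listed as induced by MYC (left, 40 genes) or repressed by MYC (right, 7 genes that passed the filter), ordered by size; colours give the call. Most induced genes lie between 0 and -1.3 with Ccnd2 far below at -7.33, and Hk2 is the induced gene called higher.

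Of the known MondoA and MLX targets, Txnip, an inhibitor of thioredoxin and of glucose uptake, fell, while Mlx was called higher and Mlxip was not called. It had 4823, 5408 and 6521 scaled fragments in MPs and 3233, 3354 and 3381 in APL (log2 fold change -0.74, SE 0.11, adjusted p = 0.000263). Arrdc4, the related arrestin gene, had 416 ± 68.8 and 334 ± 41.9 (-0.31, adjusted p = 0.0995) and was not called. Of 12 proliferation genes 2 were called lower and 0 higher, against 24.4% and 21.7% of all genes tested, with a median of -0.30 against -0.10. These were Ccna2, cyclin A2 (6485 ± 365 against 3576 ± 97.9, -0.86, adjusted p = 7.16e-06), and Top2a, topoisomerase 2-alpha (16831 ± 880 against 10024 ± 308, -0.75, adjusted p = 3.79e-05). At any fold, 7 of the 12 were lower and 1 was higher at an adjusted p under 0.05, against 37.3% and 29.7% of all genes.

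Markers of other cell types moved with the groups, and their part in the results above was not tested. The gene named first for a list had its highest mean FPKM over the 6 libraries, which need not lead in each group. For comparison, 24.4% of all genes tested were called lower and 21.7% higher. Of 7 erythroid markers 6 passed the filter and 6 were called lower. Their summed FPKM was 1401, 1542 and 1915 in the MPs and 4.76, 7.28 and 8.05 in APL, led by the carbonic anhydrase gene Car1, and Hbb-b1 was low in both groups and at or under 3 fragments in every APL library. Of 5 megakaryocyte markers 4 were called lower (sums of 65.9, 61.8 and 95.3 FPKM against 3.48, 3.64 and 4.73, led by Pf4, with Gp9 at or under 3 fragments in APL, where Gp1bb led). MP library 3, in which Mycn and Bmyc were highest, also had the highest sums of both lists. The same library had the highest sums of the mast cell and basophil, dendritic cell, and T and NK cell lists given below. It also had the largest scaled total of the MPs (24288946 against 22108198 and 21876288). Genes outside the marker lists varied there too, with Hspe1 and Txnip highest and Mga lowest of the MPs. What set these rankings was not tested.

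The lists of the granulocytic and monocytic lineages held genes that rose and genes that fell, and a few abundant genes set their sums. Their counts stand against 21.7% of all genes tested called higher and 24.4% called lower. Of 4 promyelocyte markers 3 were called higher, led by the elastase gene Elane (in MPs by Mpo), and their summed FPKM was 9460, 8378 and 8439 in MPs and 22920.4, 27383 and 26670.2 in APL. The markers of the labelled cell type were thus present in every APL library, and in every MP library as well. Prtn3 was not called (log2 fold change 0.12, adjusted p = 0.380). Of 6 late granulocyte markers 3 were called higher and 2 lower, led by S100a8, with sums of 18422, 11852 and 15355 in MPs and 57059, 59659 and 45774 in APL. Without S100a8 and S100a9 the mean sums were 1692 FPKM in MPs and 1111 in APL, and Ltf and Ngp, of the secondary granules, were the genes called lower. Of 5 monocyte markers 3 were called higher and 2 lower, led by F13a1 (sums of 86.7, 72.9 and 78.3 against 268, 289 and 284). Without F13a1 the mean sums were 43.2 FPKM in MPs and 30.9 in APL, and Ly86 fell from 19.5 ± 1.65 to 0.725 ± 0.263 FPKM (SD, n = 3). Without both F13a1 and Ly86 the direction turned, with mean sums of 23.7 FPKM in MPs and 30.2 in APL. Cd14 and Ccr2 were called higher (log2 fold changes 1.39 and 1.19) and Csf1r lower (-1.81).

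The other marker lists given here had low sums. Their counts too stand against 24.4% of all genes tested called lower and 21.7% called higher. Of 5 mast cell and basophil markers 3 were called lower and 1 higher, led by Mcpt8, which rose (sums of 63.9, 49.2 and 68.0 FPKM against 42.1, 49.9 and 48.9). In MPs the mast cell gene Cpa3 led, and it fell from 34.0 ± 6.61 to 0.786 ± 0.340 FPKM. Of 4 dendritic cell markers 2 were called lower, led by Flt3, which early progenitors also express, and in APL by Itgax (sums of 15.4, 16.1 and 23.3 against 0.886, 1.02 and 0.898), with Siglech at or under 3 fragments in APL and Cd209a in both groups. Of 4 T and NK cell markers found, 2 passed the filter and 1 was called lower, led by Cd4, and in APL by Ncr1 (sums of 2.12, 1.99 and 2.67 against 0.0578, 0.0542 and 0.125), with Cd3g and Ncr1 at or under 3 fragments in APL and Cd3e in both groups.

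The genes whose pattern over the 6 libraries was most like that of Myc were Mtrf1l (Pearson r = 0.996), Akr1e1 (0.996), BC003965 (0.994), Th1l (0.993) and Ppp1r9b (0.993), among 10309 genes with a mean of at least 100 scaled fragments. Mtrf1l encodes a mitochondrial translation release factor, Akr1e1 an aldo-keto reductase, Th1l a subunit of the negative elongation factor and Ppp1r9b a scaffold of protein phosphatase. Their log2 fold changes lay between -0.74 and -0.46. The coefficients describe 6 libraries that share the contrast of the groups, and carry no p.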

How the data were processed

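RNA from 3 MP and 3 APL samples was sequenced on TruSeq libraries. The submitters' processing notes name CASAVA 1.8, TopHat2 2.0.6 and mm10, and the study's methods name FastQC, Cutadapt, STAR on mm9, HTSeq-count and DESeq2. The tool that made the table, and how its counting treated strand, are not given in the sources used here. The deposited FPKM values were computed by the authors per transcript length and mapped fragments. The deposited fragment values are a signal of estimated fragments that the authors scaled by a factor of each library. Dividing by the step of a single fragment gave whole numbers (within 0.1) for 92.8% to 93.9% of values up to 20 steps, under the 95% set for a count test. Unscaled fragments were taken as the value over that step. Coordinates are on GRCm38. Deposited starts count from 0 (of 16361 genes with an identifier in RefSeq GRCm38, 7057 had its start after 1 was added and 586 without), and are given here from 1.

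Genes that reached 1 scaled fragment in 3 or more of the 6 libraries were fitted with limma 3.58.1 (lmFit, eBayes with trend) in R 4.3.3 on log2(scaled fragments + 1), so that fold changes of low genes are understated. The fit was tested on simulated data. P-values measure the spread between the 3 libraries per group. Alternatives covered the filter, the pseudocount, the scaling, FPKM, the variance trend, a block on library numbers, the fold threshold and each library left out. Ratios of fragments carry exact binomial intervals at 95%, which cover counting error only, as does the limit of 3 fragments. Promoters came from RefSeq, assembly GRCm38.p6, in which 9 of 10 members had a promoter window. The members and lists were chosen with earlier results of these data known. All members and wider network genes were named. Of each other list of the network the 3 largest and 3 smallest called fold changes were named, with uncalled genes where the whole list had 5 genes or fewer, and of marker lists the most abundant gene over all libraries. Other marker genes were named after their values were seen. The result of 1 marker list is not reported here. Genes within 1 Mb of Myc and the 5 genes most correlated with it were also named. Plots used Python 3.11.15 and matplotlib 3.10.9.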

Additional observations from a re-analysis of the deposited data

How the results depend on the processing

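The members' fold changes kept their direction and their side of the threshold in 159 of 160 refits, the exception being Mxd3, which was called with quantile normalization (log2 fold change 0.59). At a fold over 2, the members called higher were 1 and the MYC induced genes called lower were 3. The MYC induced genes called higher were 2 with FPKM, with the median ratio and with quantile normalization, and 1 to 2 with each library left out (2 without APL library 1 or without MP library 3). Of the counts of the other lists, 17 moved by more than 1.5 times. Apart from those of the MGA subunits, these were the corepressors called lower (2 without MP library 3 and with the same total), the stability regulators called higher (1 without APL library 1 and with the median ratio) or lower (4 with the same total), the cofactors called lower (1 with the median ratio), and, at a fold over 2, the cofactors, stability regulators, corepressors, MondoA and MLX targets and proliferation genes called lower, of which there were 0. Scaling every library to the same total shifted the median of all genes by -0.13 and gave 4376 genes lower and 2754 higher (61.4% of calls lower), against 3558 and 3167 (52.9%). A replicate block on library numbers gave 3589 genes lower and 3164 higher, and under it Mga had an adjusted p of 0.0220 with a log2 fold change of -0.34. Same-numbered libraries deviated together with r = 0.135, -0.0016 and 0.127 over 11061 genes. Differently numbered ones had r from -0.277 (MP library 3 with APL library 1) to 0.197 (MP library 2 with APL library 1). The same-numbered values lay within that range, so that the numbers are taken as names only. Deviations shared across the groups were not modelled apart from the block on library numbers. A count test on recovered fragments was planned and not run, because fewer than 95% of low values were whole. Depth limits Mycn, Bmyc and Mycl1 in APL, which rest on 11, 6 and 3 fragments.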
